A study of Homo sapiens with 6 samples.

Results

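The 48 genes described here encode the kinases, cyclins, checkpoint proteins, kinetochore subunits and spindle motors that carry a cell through mitosis. They were taken by gene symbol, and each was found in the gene name field of 1 locus, so that they make up 48 of the 19170 loci of the deposited table. RNA was sequenced from 6 human neuroblastoma cell lines without treatment, with 1 library per line. BE(2)-C, CHP134, Kelly and SK-N-DZ are MYCN-amplified, that is, they carry extra copies of the gene for the transcription factor N-Myc, and SK-N-AS and SY5Y are MYCN-non-amplified. Kelly and CHP134 were grown in RPMI medium and the other 4 lines in DMEM, all with 10% fetal calf serum. Every test therefore rests on the spread between lines, which serve as the replicates and differ from each other in more than MYCN.

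Mitosis is driven by CDK1 bound to cyclin A or cyclin B, and is organised further by the Aurora and Polo-like kinases. Kinetochores assemble on centromeric chromatin that holds the histone variant CENP-A: an inner layer, the constitutive centromere-associated network, carries the outer NDC80 complex, which grips spindle microtubules. The spindle checkpoint holds back the anaphase-promoting complex until every chromosome is attached. Most of these genes are transcribed late in the cell cycle, when B-Myb (MYBL2) and FOXM1 join the MuvB proteins at their promoters. In neuroblastoma, Aurora A (AURKA) is known for binding N-Myc protein and protecting it from degradation.

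Values were read as FPKM, fragments scaled by transcript length and by library size, though the table itself does not name their unit. Since the libraries' depth is unknown, counting error is not given. Small noncoding RNAs took 28.4% to 45.7% of the FPKM sum in the MYCN-amplified lines, 59.7% for SK-N-AS and 51.6% for SY5Y, and this share moves with the group comparison. Its part in the results was not tested, but scaling the libraries to a common sum without these RNAs moved the median fold change of all loci from -0.09 to -0.14 on the log2 scale. Of the neuroblastoma markers, the transcription factor genes HAND2 (65.8 to 183 FPKM) and ISL1 (9.06 to 91.9) and the chromogranin gene CHGA (85.2 to 1291) were present in every line. The noradrenergic enzyme genes were not: DBH was at 0.0960 FPKM in CHP134 and 0.347 in SK-N-AS, and TH was at 72.5 in Kelly and at most 0.922 in the other lines. The sum of 9 mesenchymal markers came to 998 FPKM for SK-N-AS and 426 for SY5Y, against 14.6 to 122 in the MYCN-amplified lines. Most of it was VIM in SK-N-AS (612) and SY5Y (386). Of the 8 markers tested, COL3A1 alone was called by the limma test given below. It was lower in the MYCN-amplified lines (log2 fold change -6.65, adjusted p = 0.0317). In 4 of the 8, VIM, COL3A1, COL1A1 and YAP1, all MYCN-amplified values lay below both others, beside 16.4% of all loci. The rest did not follow this: FN1 was highest in SK-N-DZ (19.3) and SNAI2 in BE(2)-C (4.61). PRRX1 and CD44 were at 45.7 and 19.4 FPKM in SK-N-AS but 0.00327 and 0.212 in SY5Y. Of 12 markers of other cell types 6 had a locus, and PTPRC, the leukocyte gene for CD45, had 108 FPKM in SK-N-AS but at most 0.0658 in the other lines, while KRT18 was at 36.0 in SK-N-AS and at most 0.0768 elsewhere. EPCAM did not exceed 0.26 FPKM in any line. The part of these differences in the results that follow was not tested. These are bulk samples, so that fewer cells in mitosis and less mitotic RNA per cell cannot be told apart.

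Each of the 48 mitotic genes was expressed in each line, from 5.39 FPKM for ESPL1 in SY5Y to 182 FPKM for TOP2A in CHP134, and all passed the minimum of 1 FPKM in at least 2 lines. Their summed level was 1942 FPKM in BE(2)-C, 2346 in CHP134, 2415 in Kelly and 2268 in SK-N-DZ, with SK-N-AS at 1601 and SY5Y at 1441. The groups did not overlap in this sum, and the median gene stood at 27.1 to 39.9 FPKM in the MYCN-amplified lines, 24.4 for SK-N-AS and 21.9 for SY5Y. As a share of the FPKM sum without small noncoding RNAs, the 48 genes took 0.346% to 0.536% in the MYCN-amplified lines and 0.305% in each of the other lines.

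**Figure D1:**
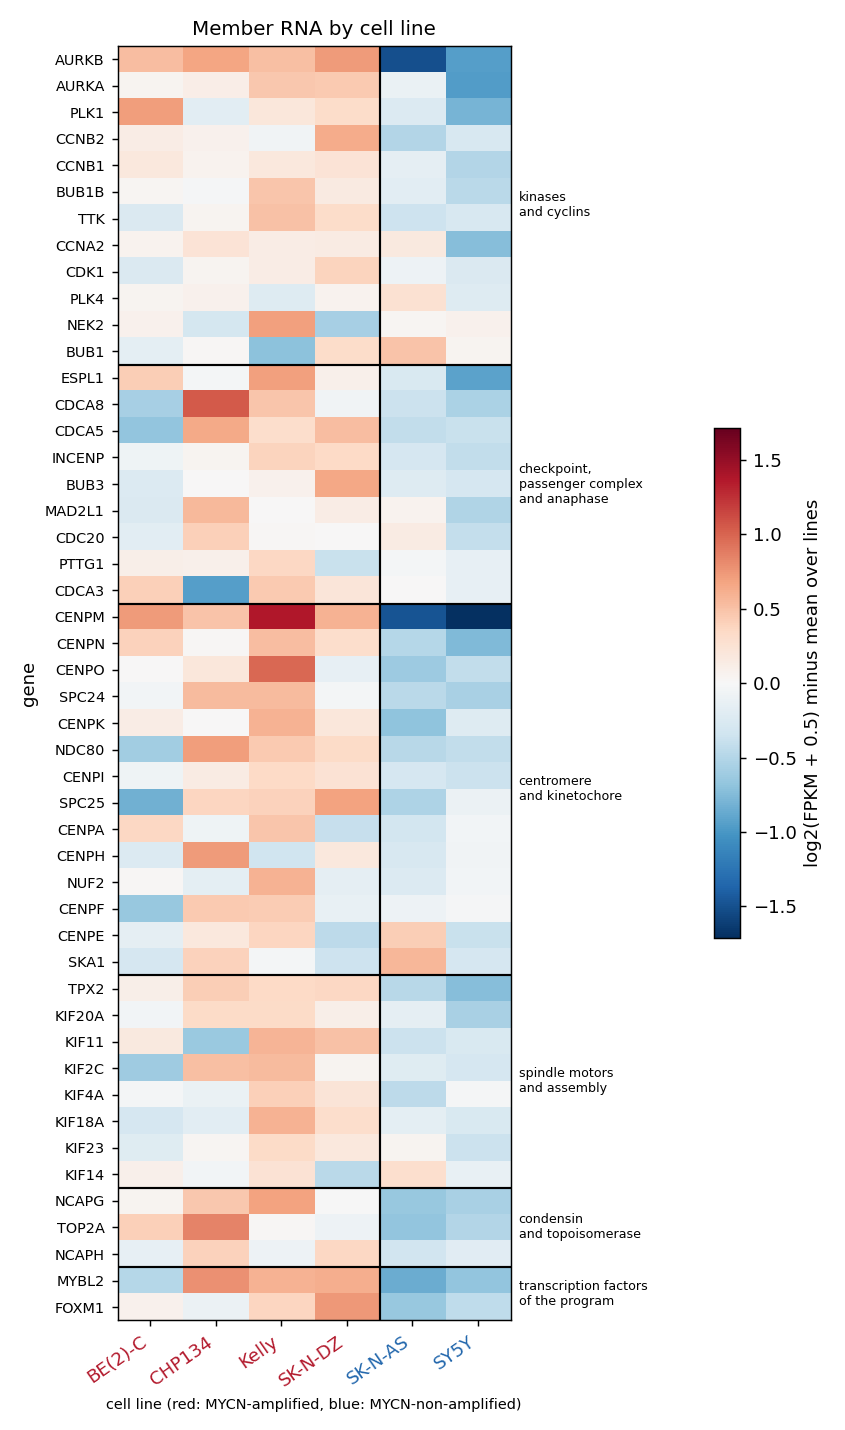
Level of each of the 48 genes (rows, grouped by role and ordered by fold change) in each cell line (columns), as log2(FPKM + 0.5) minus the mean of that gene over the 6 lines. Red is above that mean and blue below it. AURKB and CENPM show the widest contrast between the MYCN-amplified and the MYCN-non-amplified columns, while BUB1, SKA1 and KIF14 are red in SK-N-AS.

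MYCN-amplified lines had more RNA of the Aurora B kinase gene AURKB and of the centromere gene CENPM than SK-N-AS and SY5Y, and these were the only members of the set that passed the test, in which limma compares log2(FPKM + 0.5). A locus counts as called where its log2 fold change exceeds 1 in size and its p, adjusted by the method of Benjamini and Hochberg, is below 0.05. Across the 12870 loci tested, 18 were called higher, or 0.14%, and 47 were called lower, or 0.365%. None of the 48 genes was called lower by limma, and none was lower at an unadjusted p below 0.05, where 9.46% of all loci were. A further 9 genes reached an unadjusted p below 0.05 with higher values, which makes 11 of 48, beside 5.48% of all loci. In 22 of the 48, or 45.8%, all 4 MYCN-amplified values lay above both others, beside 10.5% of all loci, and in none did they lie below both, beside 16.4%. The log2 fold change was above 0 for 42 genes, or 87.5%, beside 44.4% of all loci. Its median was 0.47, a 1.39-fold difference, with a range from -0.40 for BUB1 to 2.39 for CENPM, beside a median of -0.09 over all loci. An exact permutation test of 4 lines against 2 has 15 regroupings and cannot give a two-sided p below 0.0667, so that a single gene cannot pass 0.05 in it.

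**Figure D2:**
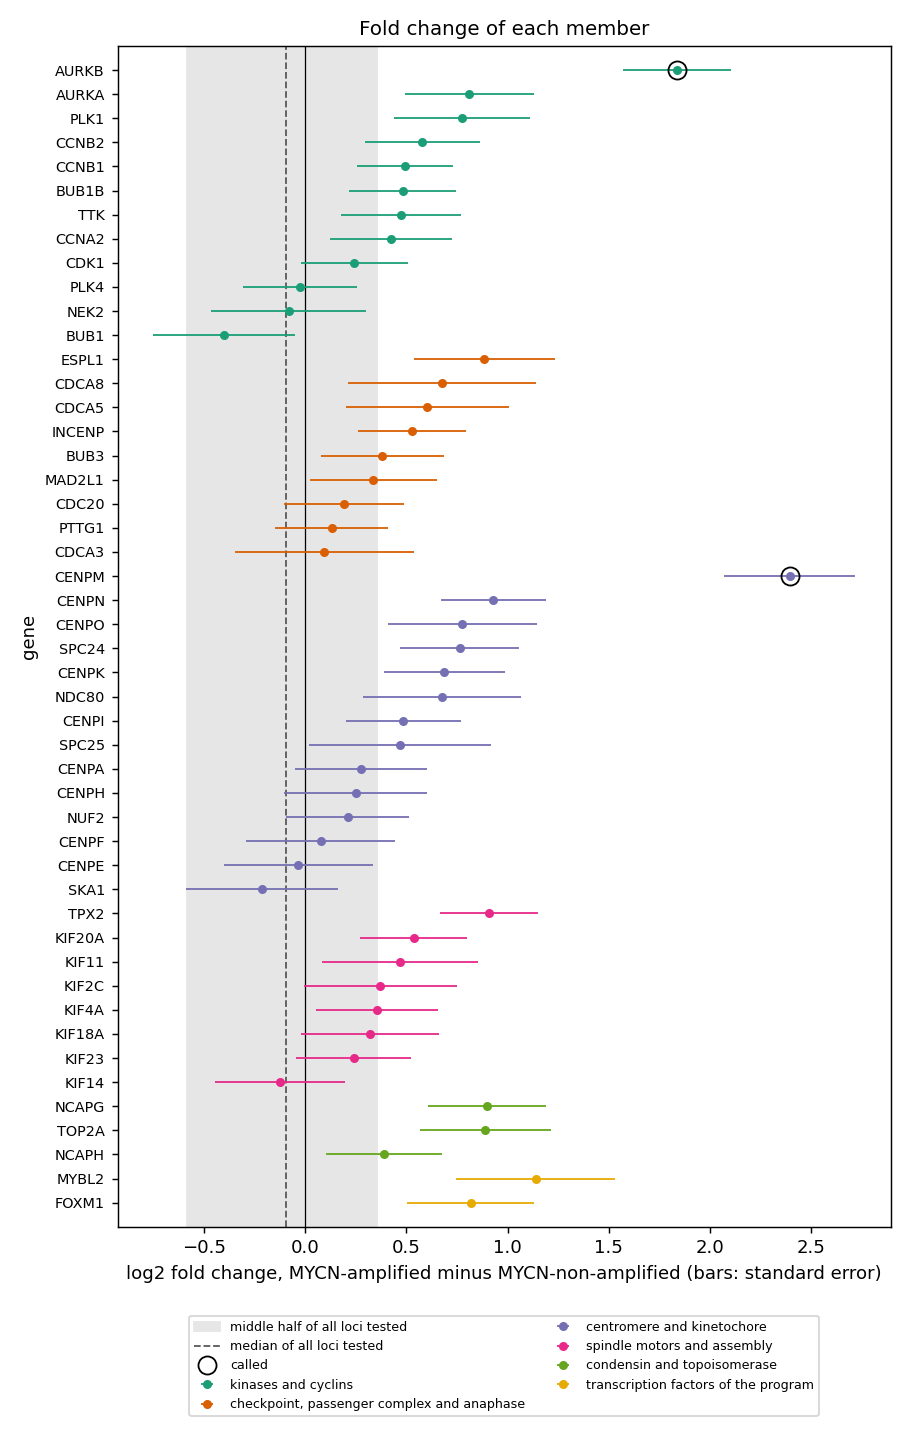
Log2 fold change of each of the 48 genes, MYCN-amplified minus MYCN-non-amplified lines, on the log2(FPKM + 0.5) scale, with the standard error from limma as bars and a colour for each role. The grey band spans the middle 50% of all 12870 loci (-0.58 to 0.35) and the dashed line is their median (-0.09). Circles mark AURKB (1.84) and CENPM (2.39), which stand apart from the next gene, MYBL2 (1.14).

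Both calls rest on all 6 lines. Leaving out any line ended both: the adjusted p of AURKB was 0.0616 without BE(2)-C, 0.0986 without CHP134, 0.117 without Kelly, 0.116 without SY5Y, 0.113 without SK-N-DZ and 0.554 when SK-N-AS was left out, and that of CENPM, with the lines in the same order, was 0.0593, 0.0741, 0.0702, 0.159, 0.103 and 0.400. The fold changes stayed within 1.55 to 2.12 for AURKB and 2.20 to 2.51 for CENPM on the log2 scale. The common sum without small noncoding RNAs ended the call of AURKB (adjusted p = 0.0689) and left that of CENPM, and a pseudocount of 0.1 ended both. The 11 genes at an unadjusted p below 0.05 became 7 without Kelly, beside 4.24% of all loci. With SY5Y or SK-N-AS left out, the smaller group holds 1 line, so no count at that p is given. The count of 11 is thus not shown to hold without either line, and the adjusted p of AURKB and CENPM without them have the same limit. Without SY5Y the median fold change was 0.43 on the log2 scale and 40 genes were above 0. The MYCN-amplified lines then all lay above SK-N-AS in 24, beside 22.0% of all loci. Without SK-N-AS the median fold change was 0.47, 46 genes were above 0, and the MYCN-amplified lines all lay above SY5Y in 29, beside 18.1% of all loci. Single fold changes then moved by between -0.28 (AURKB) and 0.45 (CCNA2) on the log2 scale. With the 4 lines grown in DMEM alone, 2 against 2, none was called by limma (adjusted p = 0.259 for AURKB and 0.193 for CENPM). At an unadjusted p below 0.05 stood 6 with higher values, beside 3.01% of all loci, and the median fold change was 0.37.

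The set was also described by a property that the choice of genes did not use, the sequence before the start site. The RefSeq promoter windows of GRCh38.p14, 250 bases before to 50 bases after a start site, were matched by symbol for 41 of the 48 genes, with 46 windows. AURKA, FOXM1, BUB3, CENPH, TTK, CENPM and TPX2 had no entry. The CHR element TTTGAA (in either orientation), the site known for the MuvB proteins, was held by 27 of the 46 windows, or 58.7%, against 15.2% of all 35116 windows and 10.6% of the windows of genes tested here. The CCAAT box (in either orientation), known as the site of NF-Y, was held by 33 windows, or 71.7%, against 34.6% of all. Both motifs stood in 43.5% of the 46 windows and in 5.9% of all windows. Of 32 TTTGAA matches in the 46 windows, 25 began between 60 bases before and 50 bases after the start site, or 78.1%, against 29.8% of the matches in all windows. These are matches of letters, with no test, and say nothing of binding in these lines. Windows of the same gene can overlap, as those of AURKB, CDK1 and PTTG1 do.

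The following stretches, the 150 bases before a start site, are shown because they span this range: PLK1 and CCNB2 carry a CHR with CCAAT boxes before it, CDC20 has a CCAAT box on either side of its CHR, CENPA has the box on the other strand, AURKB has a CCAAT box and no CHR, and MYBL2 has neither motif. Capitals mark the CHR and the CCAAT box on either strand, so that a box on the other strand reads ATTGG. The stretch of PLK1 lies at chr16:23678739-23678888 (plus strand), that of CCNB2 at chr15:59104996-59105145 (plus), that of CDC20 at chr1:43358831-43358980 (plus), that of CENPA at chr2:26785906-26786055 (plus), that of AURKB at chr17:8210250-8210399 (minus) and that of MYBL2 at chr20:43666964-43667113 (plus).
PLK1: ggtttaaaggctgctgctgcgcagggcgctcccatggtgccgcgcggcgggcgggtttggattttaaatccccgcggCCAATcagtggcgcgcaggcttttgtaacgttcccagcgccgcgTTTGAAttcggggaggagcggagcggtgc
CCNB2: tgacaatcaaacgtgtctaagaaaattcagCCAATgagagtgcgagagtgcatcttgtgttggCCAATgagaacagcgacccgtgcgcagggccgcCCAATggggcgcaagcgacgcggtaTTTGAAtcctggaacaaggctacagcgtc
CDC20: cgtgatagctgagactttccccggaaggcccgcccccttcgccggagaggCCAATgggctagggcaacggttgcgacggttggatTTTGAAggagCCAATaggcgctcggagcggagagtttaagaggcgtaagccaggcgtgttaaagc
CENPA: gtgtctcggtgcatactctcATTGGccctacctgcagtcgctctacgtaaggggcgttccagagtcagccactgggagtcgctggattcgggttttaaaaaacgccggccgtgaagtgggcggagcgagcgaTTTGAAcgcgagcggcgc
AURKB: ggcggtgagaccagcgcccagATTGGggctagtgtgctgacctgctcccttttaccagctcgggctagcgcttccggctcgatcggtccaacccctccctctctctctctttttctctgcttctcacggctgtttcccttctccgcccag
MYBL2: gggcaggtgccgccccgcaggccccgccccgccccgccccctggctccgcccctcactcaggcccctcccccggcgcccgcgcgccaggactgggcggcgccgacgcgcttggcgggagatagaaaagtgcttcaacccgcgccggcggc

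In PLK1 and in CCNB2 the CHR began 29 bases before the start site, in CENPA 18 bases and in CDC20 65 bases before it. AURKB, whose 2 windows overlap, held no TTTGAA in either, and its ATTGG lay 129 bases before the start site in the stretch shown. Among the 41 genes, the 26 with TTTGAA had a median log2 fold change of 0.41 and the 15 without it 0.48, and the 30 with a CCAAT box had 0.41 and the 11 without it 0.48. Neither difference was tested. The palindrome TTTAAA, a known variant of the CHR, stood in 30.4% of the 46 windows against 12.2% of all. The E-box CACGTG, also a palindrome and the known site of N-Myc, stood in 5 windows, those of CCNB1, PLK1, CENPE, CENPF and MYBL2. This is 10.9%, against 7.26% of all windows and 9.5% of the windows of genes tested here, so that the share is near that of the genes tested. The E2F-like octamers TTTGGCGC and TTTCCCGC, on either strand, stood in 0 and 2 of the 46 windows. They stood in 0.652% and 1.63% of all windows, and in 0.99% and 2.32% of the windows of genes tested here.

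**Figure D3:**
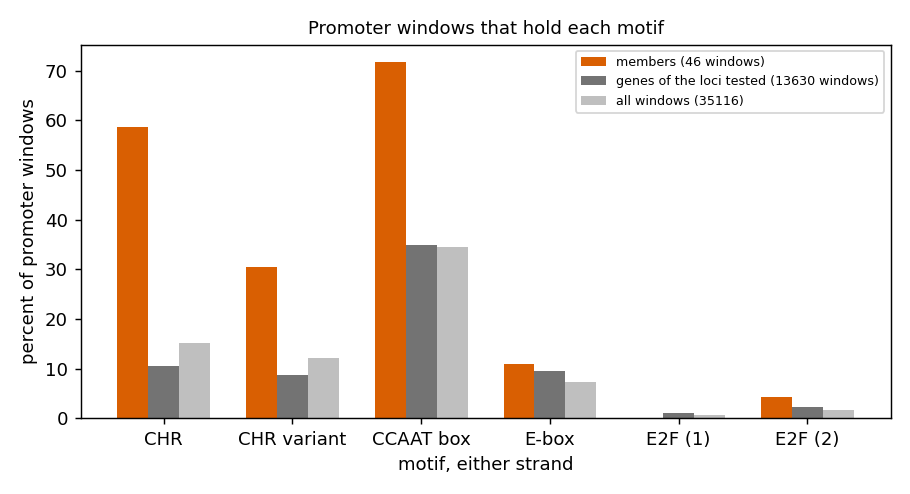
Percent of RefSeq promoter windows that hold each motif on either strand, for the 46 windows of the mitotic genes (orange), the windows of genes of the loci tested (dark grey) and all 35116 windows (light grey). CHR is TTTGAA, the CHR variant TTTAAA, the E-box CACGTG, E2F (1) TTTGGCGC and E2F (2) TTTCCCGC. The bars of the mitotic genes are 58.7% for the CHR and 71.7% for the CCAAT box, against 15.2% and 34.6% of all windows.

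Among the 12 genes for kinases and cyclins, AURKB was called higher. With higher values, 2 had an unadjusted p below 0.05, or 16.7%, beside 5.48% of all loci. In 7, or 58.3%, all MYCN-amplified values lay above both others, beside 10.5% of all loci. Aurora B is the catalytic subunit of the chromosomal passenger complex, which corrects faulty kinetochore attachments. AURKB was at 73.4 FPKM in BE(2)-C, 81.3 in CHP134, 72.9 in Kelly and 85.0 in SK-N-DZ, while SK-N-AS had 17.6 and SY5Y 26.2. The MYCN-amplified lines lay close together (78.1 ± 5.96 FPKM, SD, n = 4), and their mean was 3.57 times that of the other lines. The log2 fold change was 1.84 with a standard error of 0.26 and a 95% confidence interval from 1.22 to 2.45 (limma, adjusted p = 0.0446). The locus is listed at 8108055 to 8113918 of chromosome 17 in hg19. GENCODE 44 on that build places AURKB at 8108051 to 8113918 on the minus strand, with 9 exons in its longest basic transcript of 1254 bases and no overlapping gene.

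AURKA, the gene for the spindle pole kinase Aurora A, differed less. Its level was 43.4 FPKM in BE(2)-C, 45.6 in CHP134, 58.2 in Kelly and 57.3 in SK-N-DZ, with SK-N-AS at 38.5 and SY5Y at 21.3. The groups did not overlap, but SK-N-AS was near the lowest MYCN-amplified line, and the difference of 0.81 on the log2 scale (standard error 0.32, adjusted p = 0.299 from limma) did not pass. It was 1.23 without SK-N-AS. On the FPKM scale the ratio of AURKB to AURKA was 1.25 to 1.78 in the MYCN-amplified lines, 1.23 in SY5Y and 0.456 in SK-N-AS, the only line in which AURKA was the higher of the pair. The Polo-like kinase gene PLK1, needed for centrosome maturation and spindle assembly, was highest in BE(2)-C, at 43.0 FPKM. CHP134 had 22.8, Kelly 29.7 and SK-N-DZ 32.4, while SK-N-AS had 22.0 and SY5Y 14.7, so that CHP134 and SK-N-AS nearly met (0.78, standard error 0.34, adjusted p = 0.342). PLK1 overlaps the coding gene ERN2 on the opposite strand, and since the library kit does not mark strand, reads from a shared stretch cannot be told apart.

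Cyclin B1, the partner of CDK1 at mitotic entry, had the highest mean level of this group. CCNB1 was at 160 FPKM in BE(2)-C, 147 in CHP134, 160 in Kelly and 167 in SK-N-DZ, with SK-N-AS at 127 and SY5Y at 99.9. These values did not overlap, with a log2 difference of 0.49 (standard error 0.24, adjusted p = 0.379). CCNB2, for cyclin B2, was at 52.0 to 84.1 FPKM in the MYCN-amplified lines and 38.1 and 44.9 in SK-N-AS and SY5Y (0.58). For CDK1 itself the range was 73.2 to 114 FPKM, against 81.8 and 73.2, and the groups overlapped (0.24). CCNA2, for cyclin A2, was at 68.1 to 76.5 FPKM in the MYCN-amplified lines and 73.1 in SK-N-AS, and SY5Y alone was apart, at 39.1. Its fold change of 0.42 was -0.02 without SY5Y and 0.87 without SK-N-AS. The ratio of CCNB1 to CDK1 was 1.36 to 1.69 in 5 lines and 2.19 in BE(2)-C.

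BUB1, a checkpoint kinase that recruits further checkpoint proteins to kinetochores, had the lowest fold change of the 48 genes. It was at 17.1 FPKM in BE(2)-C, 19.6 in CHP134, 11.7 in Kelly and 24.2 in SK-N-DZ, while SK-N-AS had 27.4 and SY5Y 20.0. Kelly was lowest and SK-N-AS highest, but the groups overlapped (-0.40, 95% confidence interval -1.22 to 0.42, adjusted p = 0.616). PLK4, which controls centriole duplication, stood at 13.2 to 16.3 FPKM against 18.6 and 13.1, and its fold change of -0.03 was 0.04 without Kelly and 0.22 without SK-N-AS. NEK2, a centrosome kinase, ranged from 17.6 in SK-N-DZ to 43.1 in Kelly, with 27.0 and 27.9 in SK-N-AS and SY5Y, and its fold change of -0.08 was 0.10 without SK-N-DZ.

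**Figure D4:**
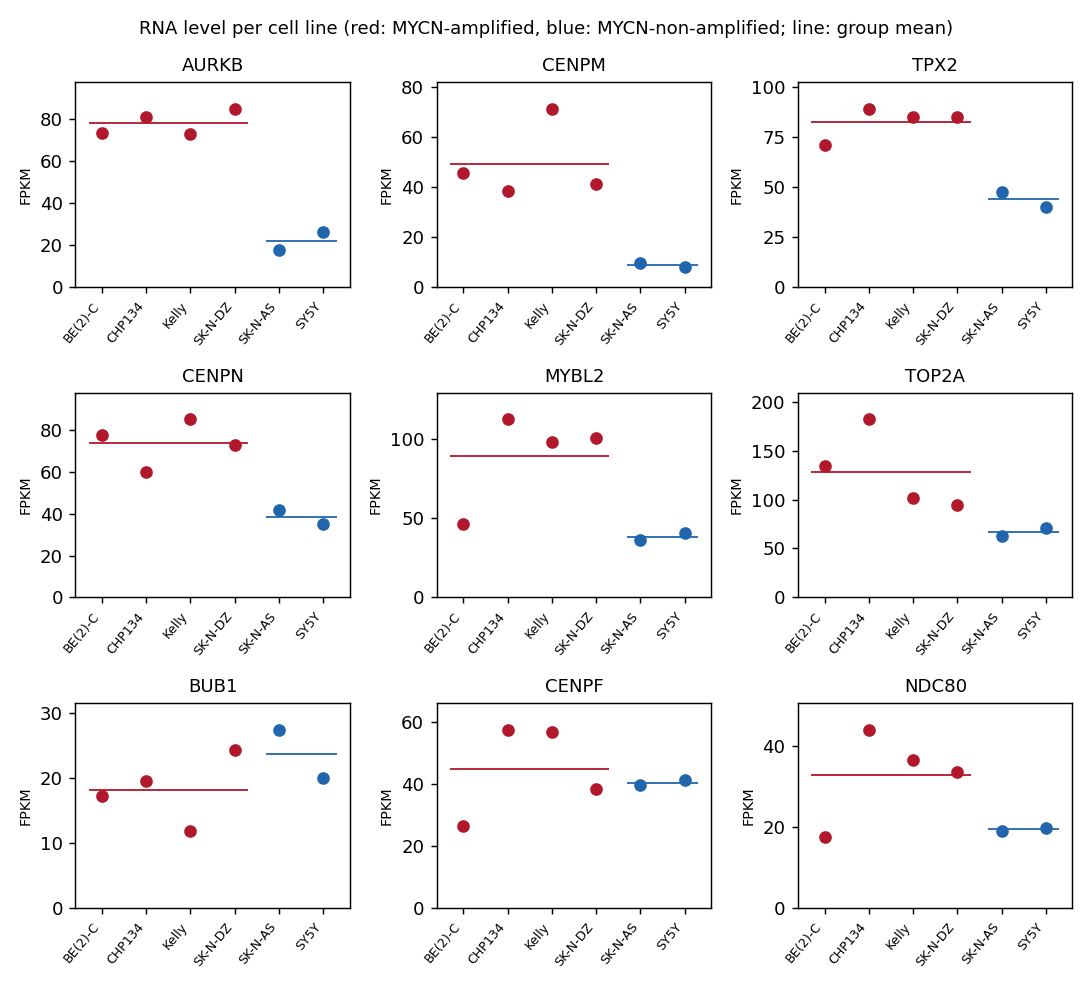
FPKM of 9 of the genes in each cell line (red points, MYCN-amplified; blue points, MYCN-non-amplified) with the mean of each group as a line, on linear axes that start at 0. AURKB, CENPM, TPX2, CENPN, MYBL2 and TOP2A have no overlap between the groups, with the lowest MYBL2 value of the MYCN-amplified lines in BE(2)-C (46.2). BUB1, CENPF and NDC80 overlap, and BE(2)-C is the lowest line for CENPF and NDC80.

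The 9 genes of the checkpoint, the passenger complex and anaphase all had fold changes above 0, with a median of 0.38, but none was called by limma. With higher values, 1 reached an unadjusted p below 0.05, or 11.1%, beside 5.48% of all loci. In 2, or 22.2%, all MYCN-amplified values lay above both others, beside 10.5% of all loci. INCENP, the scaffold that binds and activates Aurora B, was at 23.6 FPKM in BE(2)-C, 25.5 in CHP134, 32.6 in Kelly and 31.7 in SK-N-DZ, with SK-N-AS at 20.3 and SY5Y at 18.5 (0.53, standard error 0.27, adjusted p = 0.398). CDCA8, for the passenger subunit borealin, was at 6.40, 20.7, 13.6 and 9.33 FPKM in the same MYCN-amplified lines and at 7.43 and 6.54 in the others, so that BE(2)-C lay with the MYCN-non-amplified lines (0.68, standard error 0.46). The passenger subunits thus differed in size: the ratio of AURKB to INCENP was 2.24 to 3.18 in the MYCN-amplified lines, 1.42 in SY5Y and 0.867 in SK-N-AS.

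ESPL1 encodes separase, the protease that opens cohesin at anaphase. It was at 14.4 FPKM in BE(2)-C, 10.4 in CHP134, 17.6 in Kelly and 11.2 in SK-N-DZ, while SK-N-AS had 8.75 and SY5Y 5.39. The log2 difference of 0.89 (standard error 0.35, adjusted p = 0.302) was the largest of this group. Its inhibitor securin, PTTG1, had 79.7 to 133 FPKM in the MYCN-amplified lines and 101 and 94.0 in the others (0.13), so that the ratio of PTTG1 to ESPL1 was 7.09 to 10.7 in the MYCN-amplified lines, 11.6 for SK-N-AS and 17.4 for SY5Y. CDCA5, for the cohesion protector sororin, was at 45.8 FPKM in CHP134, 35.8 in Kelly and 42.3 in SK-N-DZ, but at 18.1 in BE(2)-C, below the 21.5 of SK-N-AS and the 22.2 of SY5Y (0.60, adjusted p = 0.511).

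The checkpoint genes, of which BUB1B and TTK were counted among the kinases, did not share a pattern. MAD2L1, whose protein MAD2 binds the activator CDC20, was at 92.5 FPKM in BE(2)-C, 162 in CHP134, 110 in Kelly and 120 in SK-N-DZ, with SK-N-AS at 114 and SY5Y at 76.8 (0.34). CDC20 was at 21.4 to 37.9 FPKM over the lines (0.19, and -0.08 without SY5Y) and was also highest in CHP134 and lowest in SY5Y. BUB3 stood at 170 FPKM in SK-N-DZ and 87.6 to 113 in the other 5 lines (0.38). BUB1B, for the checkpoint protein BubR1, was at 43.4 to 61.0 FPKM in the MYCN-amplified lines and 38.8 and 31.6 in the others, in a locus that the table merges with the neighbouring PAK6. TTK, for the kinase MPS1 that starts checkpoint signalling, was at 22.1 to 37.5 FPKM, against 20.3 and 21.6 (0.47). CDCA3, an adaptor for the breakdown of the CDK1 inhibitor WEE1, was at 7.88 FPKM in CHP134 and 14.2 to 21.7 elsewhere. Its fold change of 0.09 became -0.03 without BE(2)-C and -0.05 without Kelly.

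Of the 14 centromere and kinetochore genes, CENPM was called higher. With higher values, 3 had an unadjusted p below 0.05, or 21.4%, beside 5.48% of all loci. In 6, or 42.9%, all MYCN-amplified values lay above both others, beside 10.5% of all loci. CENP-M is a subunit of the constitutive centromere-associated network, where it joins CENP-H, CENP-I and CENP-K. CENPM was at 45.6 FPKM in BE(2)-C, 38.4 in CHP134, 71.4 in Kelly and 41.4 in SK-N-DZ, while SK-N-AS had 9.45 and SY5Y 7.96. The lowest MYCN-amplified value was thus far above both others, and the group means, 49.2 ± 15.1 FPKM (SD, n = 4) against 8.71, differed 5.65 times. The log2 fold change of 2.39 had a standard error of 0.32 and a 95% confidence interval from 1.64 to 3.15 (limma, adjusted p = 0.0392). The locus is listed at 42334724 to 42343168 of chromosome 22 in hg19. GENCODE 44 places CENPM at 42334741 to 42343156 on the minus strand, with 5 exons in the longest basic transcript of 1002 bases and no overlapping gene.

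The other subunits of the inner network differed by less than CENPM. CENPN, which reads the CENP-A nucleosome, was at 77.7 FPKM in BE(2)-C, 59.8 in CHP134, 85.2 in Kelly and 73.1 in SK-N-DZ, with SK-N-AS at 41.9 and SY5Y at 34.9 (0.93, standard error 0.26, adjusted p = 0.193). CENPK was at 19.9 to 30.3 FPKM in the MYCN-amplified lines and 12.1 and 16.9 in SK-N-AS and SY5Y (0.69), CENPO at 18.7 to 41.2 against 13.3 and 15.4 (0.78), and CENPI at 8.34 to 11.3 against 7.18 and 6.75 (0.48). In all of these the groups did not overlap, and Kelly was the highest line, as it was for CENPM. CENPH, though a partner of CENP-M, did overlap, at 40.8 FPKM in BE(2)-C, 80.4 in CHP134, 37.9 in Kelly and 54.4 in SK-N-DZ, against 39.6 and 46.3 (0.25). The ratio of CENPM to CENPK was 1.82 to 2.36 in the MYCN-amplified lines, 0.781 for SK-N-AS and 0.470 for SY5Y, and that of CENPM to CENPN was 0.567 to 0.837, against 0.226 and 0.228. CENPN overlaps CMC2, and CENPO overlaps ADCY3 and PTRHD1, on the opposite strand.

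In the outer kinetochore, the NDC80 complex is built of NDC80, NUF2, SPC24 and SPC25. SPC24 was at 45.01 FPKM in BE(2)-C, 68.0 in CHP134, 67.9 in Kelly and 45.2 in SK-N-DZ, while SK-N-AS had 33.6 and SY5Y 31.3, without overlap (0.76, standard error 0.29, adjusted p = 0.287). NDC80 was at 44.0, 36.4 and 33.6 FPKM in CHP134, Kelly and SK-N-DZ, but at 17.4 in BE(2)-C, below the 19.0 of SK-N-AS and the 19.6 of SY5Y (0.68). SPC25 had the same order at the low end, with 11.1 FPKM in BE(2)-C, 13.7 for SK-N-AS and 18.7 for SY5Y, against 26.0 to 32.5 in the other lines (0.47). NUF2 was instead highest in Kelly, at 62.3 FPKM, and 34.9 to 41.8 elsewhere (0.21). The ratio of NUF2 to NDC80 therefore varied from 0.828 in CHP134 to 2.40 in BE(2)-C, with 1.84 and 2.03 in SK-N-AS and SY5Y. NUF2 overlaps RGS5, and SPC25 overlaps G6PC2 and NOSTRIN, each on the opposite strand.

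SKA1, whose complex keeps kinetochores on shortening microtubules, had the lowest fold change of the 14. It was at 7.58 FPKM in BE(2)-C, 12.5 in CHP134, 9.16 in Kelly and 7.24 in SK-N-DZ, with SK-N-AS at 14.1 and SY5Y at 7.62. The value of -0.21 (95% confidence interval -1.09 to 0.66) turned to 0.21 without SK-N-AS. For the histone gene CENPA (0.27), the motor gene CENPE (-0.03) and the large corona protein gene CENPF (0.08) the groups overlapped, within 20.9 to 38.6, 8.54 to 16.0 and 26.5 to 57.5 FPKM. The fold change of CENPE was 0.37 without SK-N-AS, and that of CENPF was -0.07 without CHP134. For CENPF the 95% confidence interval ran from -0.78 to 0.94 on the log2 scale, so that a difference of the size seen for the median gene of the set lies within it.

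None of the 8 genes for spindle motors and spindle assembly was called by limma. With higher values, 1 had an unadjusted p below 0.05, or 12.5%, beside 5.48% of all loci. In 2, or 25.0%, all MYCN-amplified values lay above both others, beside 10.5% of all loci. TPX2, which activates Aurora A and nucleates spindle microtubules, had the highest mean level and the largest fold change of this group. It was at 71.3 FPKM in BE(2)-C, 89.1 in CHP134, 84.9 in Kelly and 85.1 in SK-N-DZ, while SK-N-AS had 47.6 and SY5Y 40.0 (0.91, standard error 0.24, adjusted p = 0.181), and its adjusted p was the lowest of the 46 genes not called. KIF20A, a kinesin of cytokinesis that moves the passenger complex to the midzone, was at 34.0 FPKM in BE(2)-C, 43.9 in CHP134, 44.1 in Kelly and 37.5 in SK-N-DZ, with SK-N-AS at 31.3 and SY5Y at 23.6 (0.54, adjusted p = 0.390). Its locus overlaps BRD8 and CDC23 on the opposite strand.

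KIF11, for the motor Eg5 that pushes the spindle poles apart, had 33.4 FPKM in BE(2)-C, 45.2 in Kelly and 42.7 in SK-N-DZ, but 19.1 in CHP134, below SK-N-AS (23.0) and SY5Y (24.9). KIF2C, for the microtubule depolymerase MCAK, showed another order, with 19.5 FPKM in BE(2)-C as the lowest line and 43.1 and 43.8 in CHP134 and Kelly. KIF14, a kinesin of cytokinesis, was at 11.5 FPKM in BE(2)-C, 10.4 in CHP134, 12.9 in Kelly and 7.70 in SK-N-DZ, while SK-N-AS had 13.3 and SY5Y 9.85. Its fold change of -0.13 (standard error 0.32) had no stable sign, at 0.01 without SK-N-DZ, 0.03 after quantile normalization and 0.08 without SK-N-AS. KIF18A, KIF23 and KIF4A had fold changes of 0.24 to 0.36 with overlapping groups. Kelly was the highest line for 6 of the 8 genes.

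All 3 genes for condensin and topoisomerase had higher values in each line with MYCN amplification than in both others, beside 10.5% of all loci. With higher values, 2 had an unadjusted p below 0.05, beside 5.48% of all loci, though none was called by limma. TOP2A, for topoisomerase IIα, which untangles sister chromatids, was at 134 FPKM in BE(2)-C, 182 in CHP134, 102 in Kelly and 94.4 in SK-N-DZ, with SK-N-AS at 62.7 and SY5Y at 70.7 (0.89, standard error 0.33, adjusted p = 0.270). NCAPG, a condensin I subunit, stood at 42.3 FPKM in BE(2)-C, 56.9 in CHP134, 66.5 in Kelly and 41.0 in SK-N-DZ, while SK-N-AS had 26.1 and SY5Y 27.8 (0.90, standard error 0.29, adjusted p = 0.229). NCAPH, the kleisin of the same complex, differed less, at 19.4, 28.3, 20.2 and 27.7 FPKM in these MYCN-amplified lines, against 17.0 and 18.7 (0.39, standard error 0.29, adjusted p = 0.549). NCAPG overlaps LCORL on the opposite strand.

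Both transcription factor genes of the late cell cycle were also higher in every MYCN-amplified line than in both others, beside 10.5% of all loci. Both had an unadjusted p below 0.05 from limma, beside 5.48% of all loci with higher values, and neither was called. MYBL2, for B-Myb, was at 46.2 FPKM in BE(2)-C, 112 in CHP134, 98.3 in Kelly and 101 in SK-N-DZ, with SK-N-AS at 36.0 and SY5Y at 40.5. BE(2)-C lay nearer to the MYCN-non-amplified lines than to the other MYCN-amplified lines, and the log2 difference was 1.14 (standard error 0.39, adjusted p = 0.253). FOXM1 was at 24.4 FPKM in BE(2)-C, 21.5 in CHP134, 30.0 in Kelly and 38.8 in SK-N-DZ, while SK-N-AS had 14.5 and SY5Y 16.9 (0.82, standard error 0.31, adjusted p = 0.288). The span listed for FOXM1, 2904118 to 3050306 of chromosome 12, holds 6 further coding genes, and ITFG2 and RHNO1 overlap it on the opposite strand.

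The lines within a group were not alike. The mean over the 48 genes of log2(FPKM + 0.5), after subtracting the mean of each gene over the lines, was 0.35 in Kelly (SD over genes 0.34), 0.20 in CHP134 (0.38), 0.18 in SK-N-DZ (0.33), -0.04 in BE(2)-C (0.35), -0.27 in SK-N-AS (0.41) and -0.40 in SY5Y (0.32). Over all loci tested it lay between -0.19 and 0.10. Kelly held the highest value of 22 genes, or 45.8%, against 18.8% of all loci, CHP134 that of 13, SK-N-DZ of 7, SK-N-AS of 5, BE(2)-C of 1 and SY5Y of 0. The lines grown in RPMI thus held 35 of the 48 highest values, or 72.9%, against 40.9% of all loci, to which CHP134 added 27.1% against 22.1%. Within the MYCN-amplified group the medium and the line cannot be told apart. SY5Y held the lowest value of 19 genes, or 39.6%, against 11.9% of all loci, and it lay below the mean of the lines in 46 of the 48 genes.

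Exceptions to the group pattern fell on different genes in different lines. BE(2)-C, of the MYCN-amplified group, was the lowest line for 7 genes: NDC80, SPC25, CDCA5, CDCA8, KIF2C, KIF18A and CENPF. These make 14.6% of the set, against 22.0% of all loci. SK-N-DZ was the lowest for 6 others, NEK2, PTTG1, CENPA, CENPE, SKA1 and KIF14, or 12.5%, against 23.7% of all loci. SK-N-AS, of the MYCN-non-amplified group, was the highest line for 5 genes, BUB1, PLK4, CENPE, SKA1 and KIF14, or 10.4%, against 23.9% of all loci. Taken over both MYCN-non-amplified lines, 31 of the 48 genes had their lowest value there, or 64.6%, against 28.7% of all loci, and 5 had their highest value there, or 10.4%, against 38.2%.

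**Figure D5:**
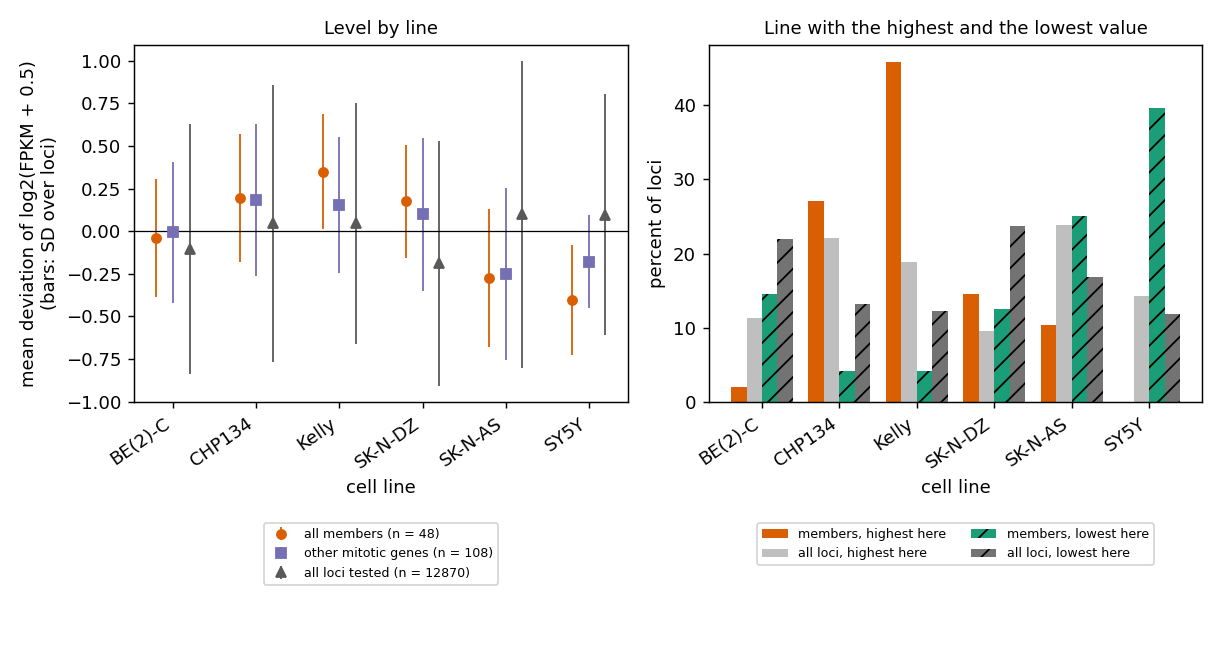
Left, mean deviation of log2(FPKM + 0.5) from the mean of each locus over the lines, for the 48 mitotic genes (members), 108 loci of other mitotic genes and all 12870 loci tested, with the SD over loci as bars. Right, percent of the 48 genes and of all loci whose highest (plain bars) or lowest (hatched bars) value fell in each line. Kelly holds 45.8% of the highest values of the 48 genes and SY5Y 39.6% of the lowest.

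Across the 6 lines, which share the group difference and the scaling of each library, the 1128 pairs among the 48 genes had a median Pearson r of 0.46, and 80.6% of them were above 0. This is a description over 6 points. Each gene was also set against the mean of the other 47: the median r was 0.71, with 18 genes above 0.8 and 4 below 0 (BUB1, PLK4, KIF14 and SKA1), while the median r of all loci with the mean of the set was -0.04 and 5.84% of them exceeded 0.8. Within the inner centromere network, pairs without CENPH had r from 0.76 to 0.98, the highest being CENPM with CENPN, and pairs with CENPH had -0.03 to 0.25. In the passenger complex, AURKB with INCENP stood at 0.80, AURKB with CDCA8 at 0.53 and INCENP with CDCA8 at 0.55. In the NDC80 complex, NDC80 had 0.88 with SPC25, 0.83 with SPC24 and 0.24 with NUF2, and the other pairs lay between 0.20 and 0.52. In the checkpoint, the pairs ranged from -0.60, for BUB1 with BUB1B, to 0.98, for MAD2L1 with CDC20, with a median of 0.36.

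The 48 genes lie on 16 chromosomes, with 7 on chromosome 1 and 5 each on chromosomes 2, 4 and 5. CCNB1, listed at 68462836 to 68474072 of chromosome 5, and CENPH, listed at 68485374 to 68506184, are close neighbours, and their patterns over the lines differed as given above. An opposite-strand gene overlaps 20 of the 48, and a coding one 12, while AURKB, CENPM, TPX2, MYBL2 and TOP2A have none. In 5 loci the table merges a member with another gene (BUB1B, CCNB2, CDCA3, CENPA and KIF4A), so that those values cannot be separated.

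Other genes of mitosis outside the set, from a list of 108 of which 107 had a locus, gave a weaker picture of the same kind. None of their 108 loci was called by limma. With higher values, 14 had an unadjusted p below 0.05, or 12.96%, beside 5.48% of all loci, and with lower values 0, beside 9.46%. In 27, or 25.0%, the groups did not overlap with the MYCN-amplified lines above, beside 10.5% of all loci. The median log2 fold change was 0.31, beside 0.47 for the 48 genes, a difference that was not tested. The smallest p was that of SKA2, a partner of SKA1 in the Ska complex, at 95.5, 150, 117 and 96.3 FPKM in BE(2)-C, CHP134, Kelly and SK-N-DZ, with SK-N-AS at 32.1 and SY5Y at 58.1 (1.37, adjusted p = 0.151). FAM64A, a mitotic regulator, followed (1.62, adjusted p = 0.165), then GSG2, for the kinase haspin that marks centromeres for the passenger complex, in a merged locus (1.14, adjusted p = 0.184), the chromokinesin gene KIF22 (0.82, adjusted p = 0.194) and PKMYT1, for an inhibitory kinase of CDK1 (1.23, adjusted p = 0.215). KIF22 varied little within the groups, at 52.4, 53.1, 50.5 and 53.6 FPKM against 28.0 and 31.1.

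Among 13 reference genes of proliferation, mainly of DNA replication, none was called, and the median log2 fold change was 0.79. With higher values in the MYCN-amplified lines, 7 had an unadjusted p below 0.05, or 53.8%, beside 5.48% of all loci. MKI67, the common marker of cycling cells, was at 20.7 FPKM in BE(2)-C, 7.99 in CHP134, 17.1 in Kelly and 15.2 in SK-N-DZ, while SK-N-AS had 12.8 and SY5Y 12.2, with overlap (0.20). PCNA was at 150 to 334 FPKM against 132 and 174 (0.57). E2F1, an activator of S phase genes, was at 33.6 to 72.2 FPKM against 13.2 and 15.2 (1.62, adjusted p = 0.127).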

How the data were processed

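Per the authors' methods, STAR was used for alignment to hg19, Gencode V18 for counting, and TMM scaling with edgeR for their own tests. The deposited values are normalized, 1 per locus and line, and were taken to be FPKM computed by the authors from 100 ng of ribosome-depleted RNA, 12 PCR cycles and 100 bp read pairs in a shared lane. For the making of the 19170 loci, a tool is not given in these sources. Of these, 16223 carry a gene name, 3067 of them several, and 1 line of the table was emptied for this work. Whole reads could not be recovered, so that no count model was run, and precision is limited by the number of lines.

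The group of each line follows the line named in its label and the study's design. Loci with a name and at least 1 FPKM in at least 2 lines (12870) were tested with limma 3.58.1 in R 4.3.3 (lmFit, eBayes with a trend) on log2(FPKM + 0.5), 4 lines against 2, with Benjamini-Hochberg adjustment over all of them. Fold changes on this scale understate those of low genes. Scripts were tested on simulated data. Positions are those of the table and of GENCODE 44 on hg19, and promoters are RefSeq windows of GRCh38.p14. Tables were read with Python 3.11.15 and figures drawn with matplotlib 3.10.9.

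The genes, lists, roles and tests were chosen with earlier results of these data known. Genes named with values are AURKB, CENPM, those called, and in each role the 3 with the smallest p, the highest and the lowest fold change and the highest mean level, with the subunits of complexes given in full, and the 5 other mitotic genes with the smallest p; further genes named, among them NEK2, PLK4, KIF2C, CENPA, CENPE, CENPF, MKI67, PCNA and E2F1, were chosen after their values were seen. Alternatives changed the pseudocount, filter, scaling, variance model, loci kept, threshold and medium, and left out each line. The number of value columns left unused was 0.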

Additional observations from a re-analysis of the deposited data

Results flagged for a closer look

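In the 48 genes, each tested for a line far from the others within the 4 MYCN-amplified lines, 1 stood out. PLK4, the kinase gene of centriole duplication, was at 13.1783 FPKM in Kelly, while the other MYCN-amplified lines lay between 16.0 and 16.3 FPKM. The gap to the nearest line was 0.888 of the range of the group, above Dixon's 95% critical value for 4 samples. Chance flags about 1 in 20 such groups, and the 13.1 FPKM of SY5Y is as low as the value in Kelly.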

How the results depend on the processing

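The number of the 48 genes called higher by limma, 2 as reported, was 0 with a pseudocount of 0.1 (adjusted p = 0.0739 for AURKB and 0.0658 for CENPM), with a minimum of 5 FPKM (0.0740 and 0.0521) and with the DMEM lines alone, and it was 0 to 0 when each line was left out. It was 1, CENPM, after quantile normalization, with a common sum without small noncoding RNAs and without limma's trend, where AURKB had an adjusted p of 0.0543, 0.0689 and 0.0573. Both genes were called with a pseudocount of 2, without the filter, with median-ratio size factors, with robust variances, with unnamed loci added, without merged loci and by adjusted p alone. The number higher at an unadjusted p below 0.05, 11 as reported, was 6 with the DMEM lines alone, beside 3.01% of all loci. With other scalings it was 9 with the common sum (4.61% of all loci), 15 after quantile normalization (8.46%) and 16 with median-ratio size factors (7.2%). It was 7 to 12 when each MYCN-amplified line was left out, beside 4.24% to 6.57% of all loci. No setting gave a gene that was called lower. The median fold change ranged from 0.37 to 0.54. The number of genes whose groups did not overlap ranged from 17, with the common sum, to 29, while 22 was the value reported. Beside these, the share of all loci with the MYCN-amplified lines above was 9.01% with the common sum. It was 16.8% without BE(2)-C and 18.1% without SK-N-AS, which both gave 29. The fold change kept its sign in every setting run for 37 of the 48 genes and turned in 11, whose reported values were at most 0.424 in size. Quantile normalization gave 0.078 for PLK4, 0.115 for CENPE and 0.026 for KIF14, median-ratio size factors gave 0.041 for PLK4 and 0.033 for CENPE, and the DMEM lines alone gave 0.034 for PLK4, -0.049 for PTTG1, -0.339 for CENPF and -0.035 for KIF2C. Over the lines left out, the fold change ranged from -0.024 to 0.872 for CCNA2, from -0.323 to 0.101 for NEK2, from -0.270 to 0.215 for PLK4, from -0.082 to 0.468 for CDC20, from -0.047 to 0.421 for CDCA3, from -0.431 to 0.365 for CENPE, from -0.065 to 0.303 for CENPF, from -0.637 to 0.213 for SKA1 and from -0.331 to 0.081 for KIF14. The cause was not tested. No paired analysis was possible, because the 6 lines are different lines with 1 library each and the groups hold no matched lines. With 4 lines against 2, small differences could not be resolved, and a line left out from the smaller group leaves 1, which is then assumed to vary like the others.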

Other observations

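Among 15 genes of the DREAM and RB repressors, which hold back late cell cycle genes in resting cells, none was called by limma, and the median log2 fold change was 0.18. In 4 of them the MYCN-amplified values all lay below both others, beside 16.4% of all loci. With lower values, 2 had an unadjusted p below 0.05, beside 9.46% of all loci. RB1 was at 11.8 FPKM in BE(2)-C, 12.8 in CHP134, 7.43 in Kelly and 14.9 in SK-N-DZ, with SK-N-AS at 20.3 and SY5Y at 21.3 (-0.84, adjusted p = 0.311). E2F4, the main E2F of the DREAM complex, was at 15.6 to 24.5 FPKM against 38.3 and 27.2 (-0.68, adjusted p = 0.349). LIN37 and LIN52, of the MuvB core, were in merged loci, at 25.0 to 34.8 FPKM against 61.9 and 54.7 (-0.89, adjusted p = 0.203) and at 5.03 to 8.43 against 8.78 and 8.55 (-0.51, adjusted p = 0.497). These genes were chosen after their values were seen.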
